A study of Danio rerio with 15 samples.

Results

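The transcripts described here were maternal transcripts whose signal had fallen at least 8-fold from the level of wild-type embryos at the 16-cell stage. In wild-type zebrafish embryos it had fallen so both by 50% epiboly and by 9 hours after fertilisation. In embryos without Dicer it had fallen so by 9 hours, and no earlier stage was measured. Dicer is the enzyme that cuts microRNA precursors, including those of miR-430, a microRNA family that in zebrafish promotes removal of many maternal mRNAs. The members were chosen by their values. Affymetrix control probe sets were dropped, the linear intensities of all 15 arrays were quantile normalised, and values under 16 were set to 16, called the floor below. A probe set was kept when its 16-cell mean was at least 1000 and its 50% epiboly value, its wild-type mean at 9 hours and its MZdicer mean at 9 hours were each at most one eighth (0.125) of that mean. Of 15502 probe sets, 2089 reached the 16-cell minimum and 169 passed all limits. Probe sets of 9 genes, buc, dazl, ccna1, h1m, cldnd, birc5b, uchl1, org and thy1, were left out by name, so 160 members remained. In the platform annotation 133 of them have 1 gene symbol, 4 have several and 23 have none. They carried 125 distinct symbols, 7 of them on more than 1 member, and probe sets of the same gene are not independent.

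A fertilised egg divides first on mRNAs and proteins that were stored during oogenesis. These maternal mRNAs are then removed, by machinery that was itself laid down by the mother and by machinery made after the zygotic genome is switched on, to which miR-430 belongs in zebrafish. Removal usually begins with shortening of the poly(A) tail, through the CCR4-NOT deadenylase complex in many cases, and decapping and decay follow.

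All embryos were Danio rerio kept at 28 °C, and each array was hybridised with RNA of 20 embryos. The groups were wild type at the 16-cell stage (n = 2) and at 50% epiboly (n = 1), both from the TLAB strain, uninjected wild type and uninjected MZdicer at 9 hours (n = 3 each), and wild type and MZdicer injected with miR-430 (n = 3 each). MZdicer embryos lack both maternal and zygotic Dicer, so the mother's own store of Dicer was missing too. The labels used here give no age for the injected embryos and no strain for the 4 later groups. No group received an injection without miR-430, so miR-430 and the injection cannot be told apart. No label says that the arrays of a group came from separate clutches, and the p-values then cover the spread among these arrays alone, which may be technical. The RNA was primed with oligo(dT), so a signal reflects the poly(A) tail and not the transcript's amount alone. In whole embryos, fewer cells of a type and less RNA per cell cannot be told apart. Nor can remaining maternal RNA and newly made transcript, so a level after the 16-cell stage may hold both.

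Deposited median intensities lay between 154 and 195, and log2 values correlated at 0.983 to 0.996 within groups. The gastrula genes tbxta, ved, cdx4, msgn1, krt4 and krt8 were between 16 and 160 (mean) at 16 cells and above 600 in all later groups, gsc and sox32 were lower in MZdicer than in wild type at 9 hours (337 against 767 and 513 against 1105), and of the genes of later organs mylpfa and neurod1 stayed under 310 while ins reached 590. The dicer1 transcript was at 466 in wild type and 306 in MZdicer at 9 hours, and at 562 and 276 in the injected groups. In injected MZdicer embryos replicate 1 was the highest of its 3 arrays for 99 of 160 members (61.9%), against 35.4% of all probe sets. In uninjected wild type replicate 1, the array scanned alone on its day, was likewise the highest for 99 of 160 (61.9%), against 39.7% of all probe sets. Ratios of control probe sets along the actin transcript, middle over 5′, were 4.16 ± 0.0501 at 16 cells, 9.92 ± 1.11 in wild type and 18.2 ± 2.58 in MZdicer at 9 hours, and 9.55 ± 0.754 and 12.4 ± 0.329 in injected wild type and injected MZdicer. The 3′ over 5′ ratio of gapdh ran in another order, 0.371 ± 0.0819 at 16 cells, 0.162 ± 0.0155 in wild type and 0.196 ± 0.0127 in MZdicer at 9 hours, and 0.204 ± 0.0208 and 0.149 ± 0.0165 in injected wild type and injected MZdicer. Their part in the values below was not tested.

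Across the members, group means at 16 cells ran from 1002 to 12699 with a median of 2443. The median member mean was 133 at 50% epiboly, 70.7 in wild type and 84.7 in MZdicer at 9 hours, 70.3 in injected wild type and 77.5 in injected MZdicer. For orientation, the median normalised intensity of an array was 179, and 127 members lay below it in wild type at 9 hours and 118 in MZdicer at 9 hours. At the floor on all 3 arrays were 8 members in wild type, 10 in MZdicer, 13 in injected wild type and 5 in injected MZdicer, and a fold against such a group is a lower limit. The lowest 16-cell array of a member exceeded the highest of the 12 arrays of the 4 later groups in all 160, by 5.91-fold at the least and 20.4-fold at the median. These distances follow from how the members were chosen and are given without a test. The 16-cell and 50% epiboly arrays shared a scan day on which no array of the 4 later groups was scanned. Between those stages and the later groups, the group and the scan day cannot be told apart. The 2 arrays of the 16-cell stage differed by a median ratio of 1.04 and by at most 1.98.

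**Figure D1:**
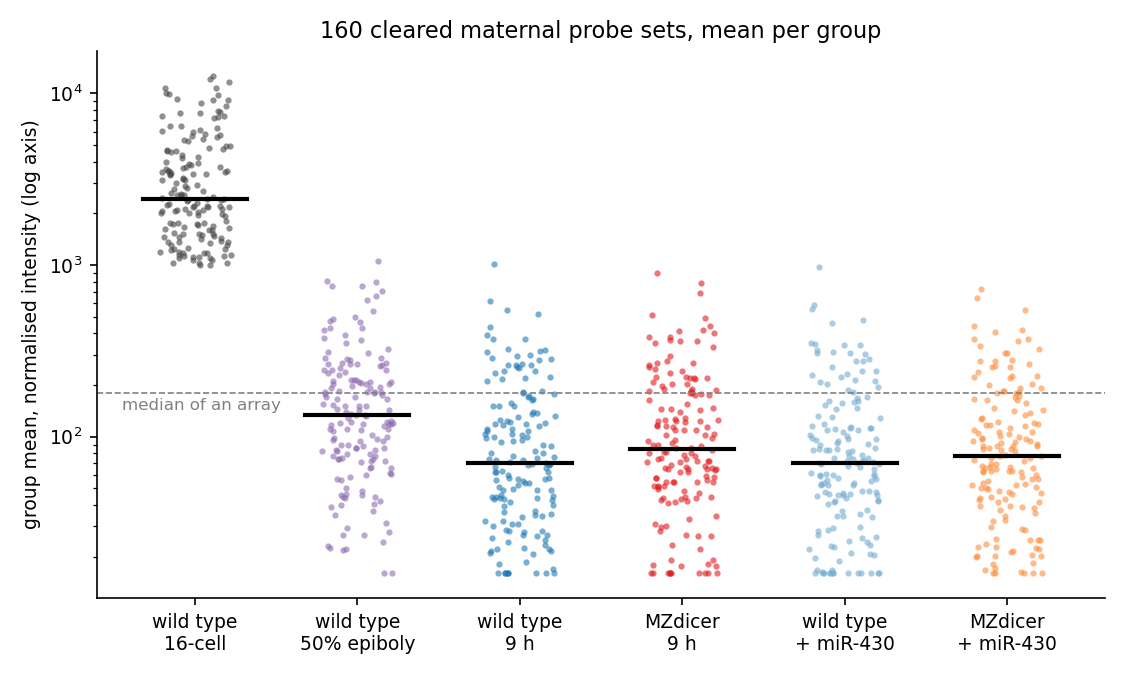
Each point is the mean normalised intensity (log axis) of 1 of the 160 members in a group of 1 to 3 arrays, the black bar is the median member and the dashed line the median intensity of an array. The medians fall from 2443 at 16 cells to 133 at 50% epiboly and to between 70.3 and 84.7 in the 4 later groups.

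The genes with the brightest member probe sets at 16 cells were mid1ip1l, cldng, nanog, siva1, cth1, kif20a, map1lc3c, ccnp, spink2.1, slc25a25a, gdf3, mylipa, wee2, slc16a3b and slbp2. The brightest, mid1ip1l, known in zebrafish for organising the cytoskeleton of the egg, stood at 12081 and 12081 on the 16-cell arrays, at 538 at 50% epiboly, at 256, 219 and 248 in wild type at 9 hours and at 383, 355 and 340 in MZdicer at 9 hours. The injected arrays read 343, 321 and 363 in wild type and 479, 379 and 404 in MZdicer. Its later values were thus all under 600, with uninjected MZdicer above uninjected wild type on every array. The RNA-binding zinc finger gene cth1 went from 10110.4 and 10061 at 16 cells to 267 at 50% epiboly and to the floor on all 3 MZdicer arrays at 9 hours, at least 630.3-fold lower. The autophagy gene map1lc3c went from 9248 ± 151 (SD, n = 2) to 93.7 ± 10.8 in wild type and 81.3 ± 5.78 in MZdicer (n = 3 each, as for all later groups below). The brightest member of all, a probe set of UniGene cluster Dr.14267, has no gene symbol in the annotation and read 12699 and 12699 at 16 cells.

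Genes that act on the translation and the tails of stored mRNAs formed the largest group by role. The roles were assigned to 62 of the 107 named genes with other than clone-type names, after their values had been seen. Of the 13 genes in this group, btg4 encodes an adaptor that brings CCR4-NOT to maternal mRNAs in the mouse. It read 3648 and 3845 at 16 cells, 129 at 50% epiboly, 122, 176 and 172 in wild type and 129, 91.3 and 121 in MZdicer at 9 hours. Injected wild type gave 148, 146 and 141 and injected MZdicer 112, 149.6 and 102. All of its later values lay between 91.3 and 176. The cytoplasmic polyadenylation element binding gene cpeb1b went from 1705 ± 78.7 to 72.7 ± 19.3 and 121 ± 7.58 in wild type and MZdicer at 9 hours. The gene pabpn1l, which encodes an embryonic poly(A)-binding protein, went from 1926 ± 138 to 69.3 ± 11.9 and 83.6 ± 5.56, and pabpc1l, the cytoplasmic poly(A)-binding protein gene used in oocytes, from 3361 ± 73 to 99.9 ± 8.95 and 117 ± 7.45. The highest 9-hour array of either gene read 125. The oocyte ribonucleoprotein gene patl2 went from 1725 ± 1.41 to 22.3 ± 5.85 and 28.1 ± 4.2, and lsm14b from 5747 ± 1422 to 121 ± 7.53 and 114 ± 6.96. The 2 arrays of lsm14b at 16 cells, 6753 and 4742, were among the most unequal of the members. The histone mRNA stem-loop binding gene slbp2, used in oocytes, went from 6455 ± 307 to 28.4 ± 3.21 and 41 ± 5.28. The eIF4E kinase genes mknk1 and mknk2a and the RNA-binding gene larp6b were also members, and mknk1 was at 70.2 ± 15.9 in wild type and 176 ± 6.79 in MZdicer at 9 hours.

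Genes of meiosis, cell division and the pronuclei numbered 12. The meiotic kinase gene mos, whose product holds vertebrate eggs in metaphase, read 4981 and 5759 at 16 cells, 29.4 at 50% epiboly, 30.1, 24.9 and 29.9 in wild type and 32, 20.7 and 17.7 in MZdicer at 9 hours. At 50% epiboly it was already within the range of the wild-type arrays at 9 hours. The oocyte inhibitory Cdk1 kinase gene wee2 went from 7251 ± 102 to 288 at 50% epiboly and then 89.2 ± 6.29 and 67.7 ± 7.54 in wild type and MZdicer. The gene fbxo43, which encodes an inhibitor of the anaphase-promoting complex in eggs, went from 2374 ± 59.8 to 31 ± 10.1 and 54.1 ± 4.81. The cyclin B-like gene ccnb1l stood at 2536 and 2598 and was at the floor on all 12 arrays of the 4 later groups. The gene bmb (brambleberry), needed in zebrafish for the nuclear envelopes of the cleaving embryo to fuse, went from 3637 ± 393 to 80.9 ± 33.4 and 89.4 ± 12.9. The lamin gene lmnl3 was at 94.7 ± 7.01 and 95.7 ± 4.43 after 2408 ± 60.6. The mitotic kinesin gene kif20a was the member with the highest level at 9 hours, 1091, 1066 and 893 in wild type and 753, 985 and 958 in MZdicer, after 9784 and 9939 at 16 cells and 754 at 50% epiboly. It was thus higher at 9 hours than at 50% epiboly on all 3 wild-type arrays, though the earlier stage has only 1 array. Another kif20a probe set, not a member, went the other way, from 781 at 50% epiboly to a mean of 607 in wild type at 9 hours.

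**Figure D2:**
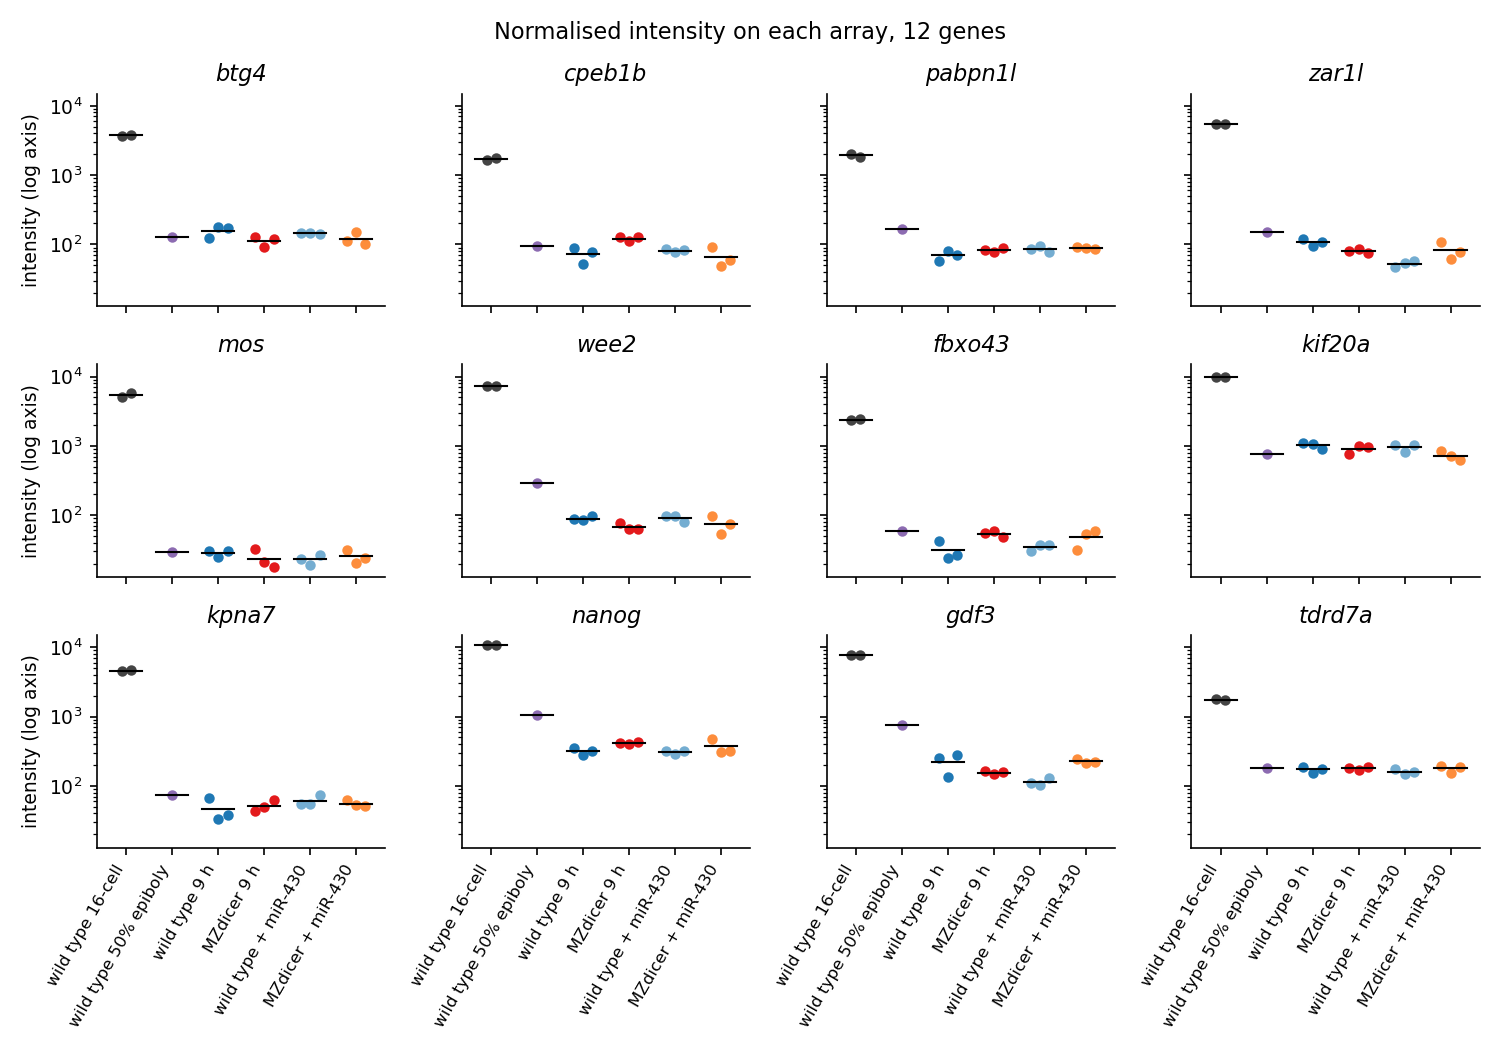
Normalised intensity (log axis) of 12 genes on each of the 15 arrays, 1 point per array, with the group mean as a bar, for the brightest member probe set of each gene. The 16-cell arrays lie at least 5.91-fold above every array of the 4 later groups for each gene, and kif20a has the highest level in these groups.

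Nuclear import, 5S RNA and transcription factor genes made up 8 members by gene. The oocyte importin alpha gene kpna7 went from 4614 ± 76.7 to 46 ± 18.9 in wild type and 51.7 ± 9.81 in MZdicer. The genes 42sp43 and gtf3ab encode proteins that in Xenopus bind 5S RNA, the first in oocyte storage particles and the second as the transcription factor of the 5S genes. The probe set of 42sp43 went from 1514 ± 10.8 to the floor in wild type and in MZdicer at 9 hours. Of the maternal transcription factors, nanog, which helps to open the zygotic genome in zebrafish, read 10730 and 10896 at 16 cells and 1059 at 50% epiboly. At 9 hours it read 352, 275 and 315 in wild type and 421, 402 and 433 in MZdicer, so all MZdicer arrays were above the wild-type ones. The T-box gene eomesa went from 2935 ± 158 to 143 at 50% epiboly and to 34.2 ± 9.65 and 77.8 ± 4.2 in wild type and MZdicer.

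There were 2 ligand genes of the TGF-beta family. The maternal gdf3 transcript encodes Vg1, a partner of Nodal ligands in mesoderm and endoderm induction, and bmp15 encodes an oocyte factor. Vg1 mRNA went from 7634 and 7697 to 755 at 50% epiboly, and to 250, 134 and 278 in wild type and 162, 147 and 159 in MZdicer at 9 hours. One wild-type array was below and the other 2 were above all MZdicer arrays. The bmp15 level went from 1651 ± 23.3 to 44.9 ± 9.5 and 34.6 ± 2.5. Of germ plasm and piRNA genes, tdrd7a, a Tudor-domain gene of germ granules whose mRNA is a described miR-430 target, went from 1751 ± 57 to 182 at 50% epiboly. At 9 hours it read 188, 155 and 175 in wild type and 184, 167 and 189 in MZdicer, with ranges that overlapped. The piRNA pathway gene asz1 went from 2227 ± 78.9 to 44.6 ± 8.28 and 51.5 ± 10.9.

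Ubiquitin ligase subunits and adaptors numbered 7 (mylipa, mkrn4, spsb1, det1, fbxw2, asb8 and lnx2b). The gene mylipa, which encodes a RING ligase known for degrading lipoprotein receptors, went from 7377 ± 512 to 312 ± 21.9 in wild type and 383 ± 5.37 in MZdicer. Among the 9 genes of metabolism, transport and lipid uptake, pkma encodes the glycolytic enzyme pyruvate kinase, slc16a3b a monocarboxylate transporter, slc25a25a a mitochondrial ATP-magnesium/phosphate carrier, lipg a lipase and vldlr a lipoprotein receptor of oocytes. The pkma transcript read 4679 and 4873 at 16 cells, 269.7 at 50% epiboly, 68.9, 57.6 and 60.2 in wild type and 467, 433 and 431 in MZdicer at 9 hours. It thus passed the limit in MZdicer although its level there was higher on every array than in wild type. Injected MZdicer arrays read 56.1, 18.5 and 33.6. The highest ratio of MZdicer to wild type at 9 hours belonged to the unnamed probe set of cluster Dr.14267, which read 51.5, 34.7 and 45.3 in wild type and 644, 672 and 736 in MZdicer. In injected MZdicer it read 87.5, 35.1 and 35.6.

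Junction genes were the claudin gene cldng, the connexin gene gjc4a.1 and the nectin gene nectin3b. The cldng member probe set went from 11324 and 11839 to 99, 63.4 and 66.3 in wild type and 69.2, 64 and 62.4 in MZdicer. The annotation assigns 3 other probe sets to cldng, and these went from means of 86.6, 148 and 254 at 16 cells to 2270.2, 4110 and 5796 in wild type and 3347, 3467 and 4954 in MZdicer at 9 hours. Its member probe set therefore does not stand for all transcripts assigned to cldng. For genes with members under a single symbol that is not of clone type, 28 other probe sets of 20 genes were on the array. Of these, 17 were at least 2-fold below their 16-cell mean in both 9-hour groups and 3, all of cldng, were at least 2-fold above it. Among the 14 others with a 16-cell mean of at least 500, 12 were at least 2-fold lower at 9 hours in both genotypes. The exceptions were second probe sets of the kinesin genes kif23 and kif20a. That of kif23 went from 2971 at 16 cells to 2123 in wild type and 2227 in MZdicer, where its member probe set went from 3706 to 25.1 and 65. That of kif20a went from 781 to 607 and 598.

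Decline from 50% epiboly to 9 hours in wild type differed among the members. At 50% epiboly 60 of 160 were at least 2-fold above wild type at 9 hours (37.5%, against 3.63% of all probe sets), and none was 2-fold or more below. The rule used both values and the scan days of the 2 stages differed, so the share is a description. Those lower at 50% epiboly than at 9 hours numbered 19 and included kif20a, btg4, lipg, pgp, bmi1b, fbxw2 and 3 genes of the endoplasmic reticulum, syvn1, manf and eif2ak3. The secreted stress protein gene manf was at 236 at 50% epiboly and 451, 402 and 459 in wild type at 9 hours, and eif2ak3, which encodes the stress kinase PERK, at 72.3 and 156, 118 and 144. Both were above the single earlier array on all 3 arrays at 9 hours, after 16-cell means of 3989 and 1596.

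Of the 160 members, 157 stayed at most one eighth of their 16-cell mean in injected MZdicer and 157 in injected wild type, on arrays that the rule did not use. Among all 2089 probe sets with a 16-cell mean of at least 1000, the shares were 13.2% in injected MZdicer and 14.1% in injected wild type. The 16-cell values in these ratios are those of the rule, and a high share was built into the choice of members through the uninjected arrays. The exceptions lay near the limit. The phosphatase gene ptp4a3a was at 0.140 of its 16-cell mean in injected MZdicer and 0.155 in injected wild type, vps9d1 at 0.1253 and 0.158, and fbxw2 at 0.1254 and 0.113, the last within the limit. The phosphoglycolate phosphatase gene pgp was at 0.0797 in injected MZdicer and 0.143 in injected wild type. The values of vps9d1 were 458, 345 and 370 in wild type, 257, 260.3 and 266 in MZdicer, 554, 517 and 592 in injected wild type and 523, 404 and 390.1 in injected MZdicer, so the injected arrays were the higher ones in both genotypes.

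The rule left out 76 probe sets that were at most one eighth of their 16-cell mean in wild type at 9 hours but above it in MZdicer. For these 76 no limit was set at the epiboly stage, where every member was at most one eighth. The sets thus differ in that limit too, and its part in the counts below was not tested. In injected MZdicer 34 of the 76 were at most one eighth, against 157 of 160 members. Their median ratio to the 16-cell mean was 0.174 in MZdicer and 0.128 in injected MZdicer, where the members had 0.0343 and 0.0297. Injected MZdicer was below uninjected MZdicer in 62 of the 76 and in 86 of the 160. Both sets were defined on the uninjected MZdicer values, so these counts describe the sets and were not tested.

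**Figure D3:**
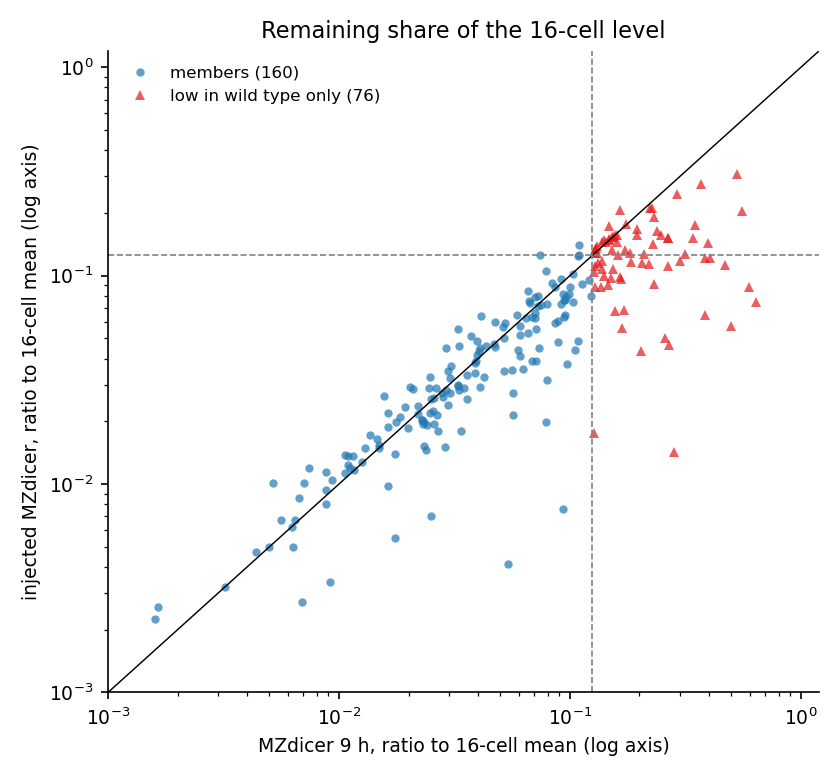
Ratio to the 16-cell mean in uninjected MZdicer at 9 hours (horizontal, log axis) and in injected MZdicer (vertical, log axis) for the 160 members and the 76 probe sets low in wild type only. The epiboly limit of the members was not set for the 76. Dashed lines mark one eighth, the solid line equality, and 157 members against 34 of the 76 lie at or under the horizontal dashed line.

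Levels of the members were then compared between injected MZdicer and injected wild type. The comparison asked whether the embryos without Dicer had different amounts of these transcripts after both genotypes had received miR-430. The 6 injected arrays had no part in choosing the members. The fit was limma's over 12 arrays and all 15502 probe sets, on log2(intensity + 16), a scale that understates changes of dim probe sets. Of the 160 members 38 were called at an adjusted p under 0.05 (23.8%, against 20.9% of all probe sets), 27 higher in MZdicer (16.9%, against 11.4%) and 11 lower (6.88%, against 9.45%). The share called was thus near that of all probe sets. The median difference was 0.07 for the members and -0.01 for all probe sets. Most differences were small, with 127 of 160 members under 0.5 in size and 8 of the 38 called members at least 2-fold apart in mean level. For 23 of the 38, both injected means lay below the median intensity of an array. These counts of size and level were taken in the members only. They do not show whether the members differ from other probe sets. Arrays with the same hybridisation date in their file headers are here called a staining run, a name the headers do not give. Injected wild-type replicates 1 and 2 were in a run without MZdicer arrays. With the run as a block, the difference therefore rested on injected wild-type replicate 3 alone against 3 MZdicer arrays. For a call lost with that block, a difference between runs and the fewer arrays cannot be told apart. With the staining run of the arrays as a block 14 members were called (9 higher, 5 lower), 13 of them among the 38. Over all 15502 probe sets 1229 were called with that block, against 3237 without it. Within the 1 staining run that both groups share, the only injected wild-type array, replicate 3, was below all 3 MZdicer arrays for 25 of the 27 called higher (92.6%, against 97.7% of all probe sets called higher) and above them for 11 of the 11 called lower (against 97.3% of all called lower). These arrays were part of the calls, so the counts describe them and support nothing. Without replicate 3 of injected MZdicer 25 members were called, 23 of them among the 38, and the count was also 25, all among the 38, without the first or the second array of injected wild type. Over all probe sets the calls in these fits were 2230, 2325 and 2187, in that order. Without injected MZdicer replicate 1, the highest array for most members, 37 were called, 21 higher and 16 lower, beside 3740 of all probe sets. Of the 38 calls 11 were lost there, and 10 of the 37 were other members. Of the 38 called members 12 were called in every alternative that tested them and none was reversed. Calls of other probe sets were not followed in this way, so the count does not show whether the members differ from them. The 12 were the probe sets of ankha, lemd1, lipg, slc25a25a and dennd2db, both of gtf3ab, those of gpx8, pgp and eif2ak3, and 2 without a symbol.

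**Figure D4:**
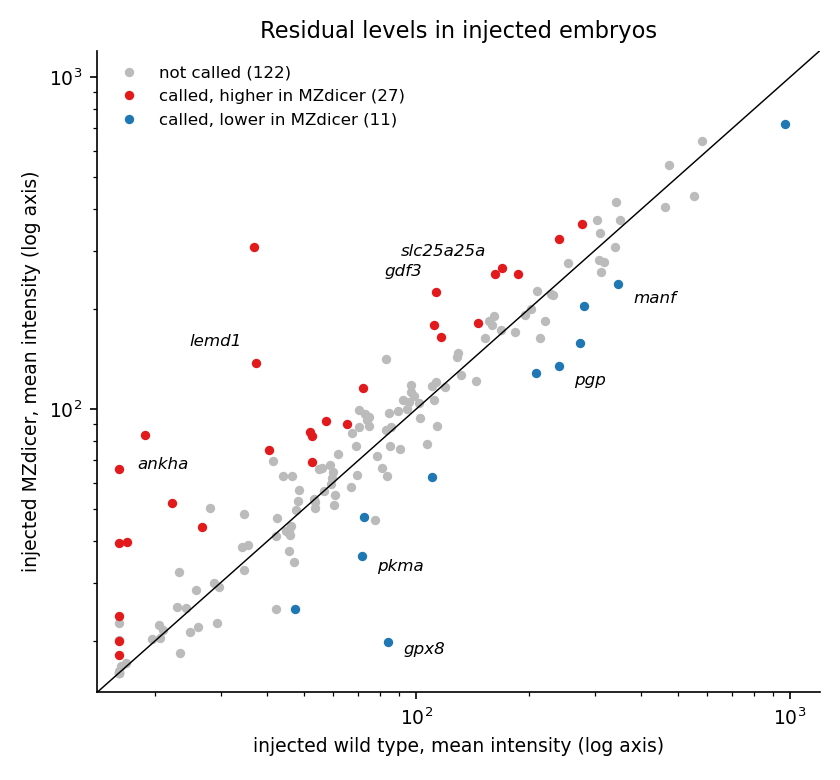
Mean normalised intensity of the 160 members in injected wild type (horizontal, log axis) and injected MZdicer (vertical, log axis), 3 arrays each, with equality as a line. Coloured points are the 27 members called higher and the 11 called lower in MZdicer by limma at an adjusted p under 0.05.

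The largest called rises among named genes on this scale were those of ankha, whose mammalian counterpart is a membrane protein that controls pyrophosphate export, and of lemd1, a LEM-domain gene. For ankha the injected wild-type arrays were all at the floor and injected MZdicer read 104, 43 and 50.6. The log2 difference was 1.70 ± 0.22 (SE, adjusted p = 1.73e-04, limma) and ran from 0.82 with a pseudocount of 64 to 2.85 with a pseudocount of 1 over the alternatives. In mean level ankha was at least 4.11-fold higher in injected MZdicer, against the floor. Uninjected arrays of ankha showed the same order, with wild type at the floor and MZdicer at 47.4, 40.8 and 39.6. Injected wild type gave 42.2, 34.8 and 34.7 and injected MZdicer 197, 100.3 and 117 for lemd1, a difference of 1.49 ± 0.22 (SE, adjusted p = 5.13e-04, limma). All MZdicer arrays of lemd1 were above all wild-type ones, and replicate 1 was the highest for both genes.

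The Vg1 ligand gene gdf3 read 109, 102 and 129 in injected wild type and 240.1, 212 and 223 in injected MZdicer, without overlap. It was higher in MZdicer by 0.90 ± 0.19 (SE, adjusted p = 0.00563, limma), and the call was lost with the staining run as a block (adjusted p = 0.139). The carrier gene slc25a25a read 155, 159 and 173 in injected wild type and 253, 243 and 272 in injected MZdicer, a difference of 0.61 ± 0.08 (SE, adjusted p = 1.40e-04, limma). The lipase gene lipg was dim in both groups, at 16.7, 17.7 and 16 in injected wild type and 52.8, 30.2 and 35.9 in injected MZdicer, and was higher in MZdicer by 0.82 ± 0.15 (SE, adjusted p = 0.00233, limma). The sialyltransferase gene st8sia7.1 was called on the dimmer of its 2 member probe sets, at the floor in injected wild type and at 34.8, 16.8 and 19.8 in injected MZdicer, with an adjusted p of 0.0362 (limma). Its brighter probe set had a difference of 0.54 ± 0.24 (SE, adjusted p = 0.136, limma), and the call on the dimmer one was lost in 8 of 23 alternatives.

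Of the regulators described above, the 5S transcription factor gene gtf3ab was called higher in injected MZdicer on both of its member probe sets. The brighter read 47.2, 55.5 and 53.7 in injected wild type and 84, 82.5 and 89.1 in injected MZdicer (0.57 ± 0.09 SE, adjusted p = 0.00102, limma). The oocyte-to-embryo translation regulator gene zar1l, at 47.6, 53.3 and 56.7 in injected wild type and 109.7, 61 and 78.2 in injected MZdicer, was called with a difference of 0.50 ± 0.15 (SE, adjusted p = 0.0342, limma). Its call was lost without any 1 of the 3 injected wild-type arrays, without injected MZdicer replicate 1 or 3, with only the 6 arrays compared and with the staining run as a block (adjusted p of up to 0.316 over the alternatives). The noncanonical poly(A) polymerase gene tent5c, with 3 member probe sets, was called on the brightest, at 201, 136 and 173 in injected wild type and 328, 220.4 and 248 in injected MZdicer, with a difference of 0.60 ± 0.16 (SE, adjusted p = 0.0209, limma). The tent5c call was lost without injected MZdicer replicate 1, without injected wild-type replicate 2, with only the 6 arrays compared and with the staining run as a block (adjusted p of up to 0.180 over the alternatives). In the translation group 2 of 13 genes were thus called higher, zar1l and tent5c, and none lower, with 11 not called. Over all probe sets 11.4% were called higher and 9.45% lower. The roles were given with the values known and the groups are small, so these counts describe the genes. Of the 8 nuclear and transcription genes 2 were called higher, gtf3ab and the Polycomb gene bmi1b. Neither of the 2 germ plasm genes, none of the 7 ubiquitin ligase genes and none of the 3 junction genes was called in either direction. For example, the differences were 0.15 ± 0.11 for tdrd7a, -0.24 ± 0.16 for btg4, 0.08 ± 0.15 for mos and 0.24 ± 0.14 for nanog (SE).

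Lower in injected MZdicer were 3 of the 6 genes of the endoplasmic reticulum group, gpx8, manf and eif2ak3, and none of the 6 was called higher, where 9.45% of all probe sets were called lower and 11.4% higher. The peroxidase gene gpx8, whose product resides in the endoplasmic reticulum, read 65.4, 75.6 and 110.3 in injected wild type and 26.6, 16 and 17.2 in injected MZdicer, and fell by 1.64 ± 0.34 (SE, adjusted p = 0.00435, limma). Uninjected MZdicer arrays were all at the floor for gpx8. For manf the injected arrays were 350.5, 370.4 and 316 in wild type and 290, 211 and 210.4 in MZdicer, a difference of -0.53 ± 0.11 (SE, adjusted p = 0.00553, limma) that was not called with the staining run as a block (adjusted p = 0.168). The dimmer manf member probe set was not called (-0.39 ± 0.17 SE, adjusted p = 0.134, limma). Injected wild type gave 113, 102 and 115 and injected MZdicer 70.5, 46.7 and 69.7 for eif2ak3, a difference of -0.70 ± 0.13 (SE, adjusted p = 0.00271, limma). Other eif2ak3 probe sets, with means of only 174 and 88.6 at 16 cells, did not share a direction. Their means were 71.3 and 32.5 in injected wild type and 60.4 and 38.9 in injected MZdicer. The groups did not overlap for the 3 called probe sets. The other genes of this group, syvn1, dnajc18 and lnpa, were not called, and syvn1, which encodes a ligase for misfolded proteins, was at 462 ± 35.8 and 405 ± 30.

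Metabolic genes went both ways, with 3 of 9 called higher (slc25a25a, lipg and the copper chaperone gene cox17) and 3 lower (pkma, slc16a3b and pgp), beside 11.4% and 9.45% of all probe sets. The pyruvate kinase gene pkma stood at 68, 64.7 and 82.1 in injected wild type against 56.1, 18.5 and 33.6 in injected MZdicer, a difference of -0.81 ± 0.20 (SE, adjusted p = 0.0119, limma). That call was lost with the staining run as a block (adjusted p = 0.0731) and with only the 6 arrays compared. For pgp the injected arrays were 241, 251 and 229 in wild type and 149, 111 and 144 in MZdicer, a difference of -0.78 ± 0.13 (SE, adjusted p = 9.73e-04, limma). The transporter gene slc16a3b was at 209 ± 23.3 and 128 ± 36.2, a difference of -0.66 ± 0.17 (SE, adjusted p = 0.0136, limma) that was not called with the staining run as a block (adjusted p = 0.112), without injected MZdicer replicate 3 or without injected wild-type replicate 1. Of the 12 cell division genes ssx2ipa, a centrosome gene, was called higher and kif20a lower, the latter by 0.42 ± 0.13 (SE, adjusted p = 0.0425, limma) and in only 11 of 24 alternatives.

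**Figure D5:**
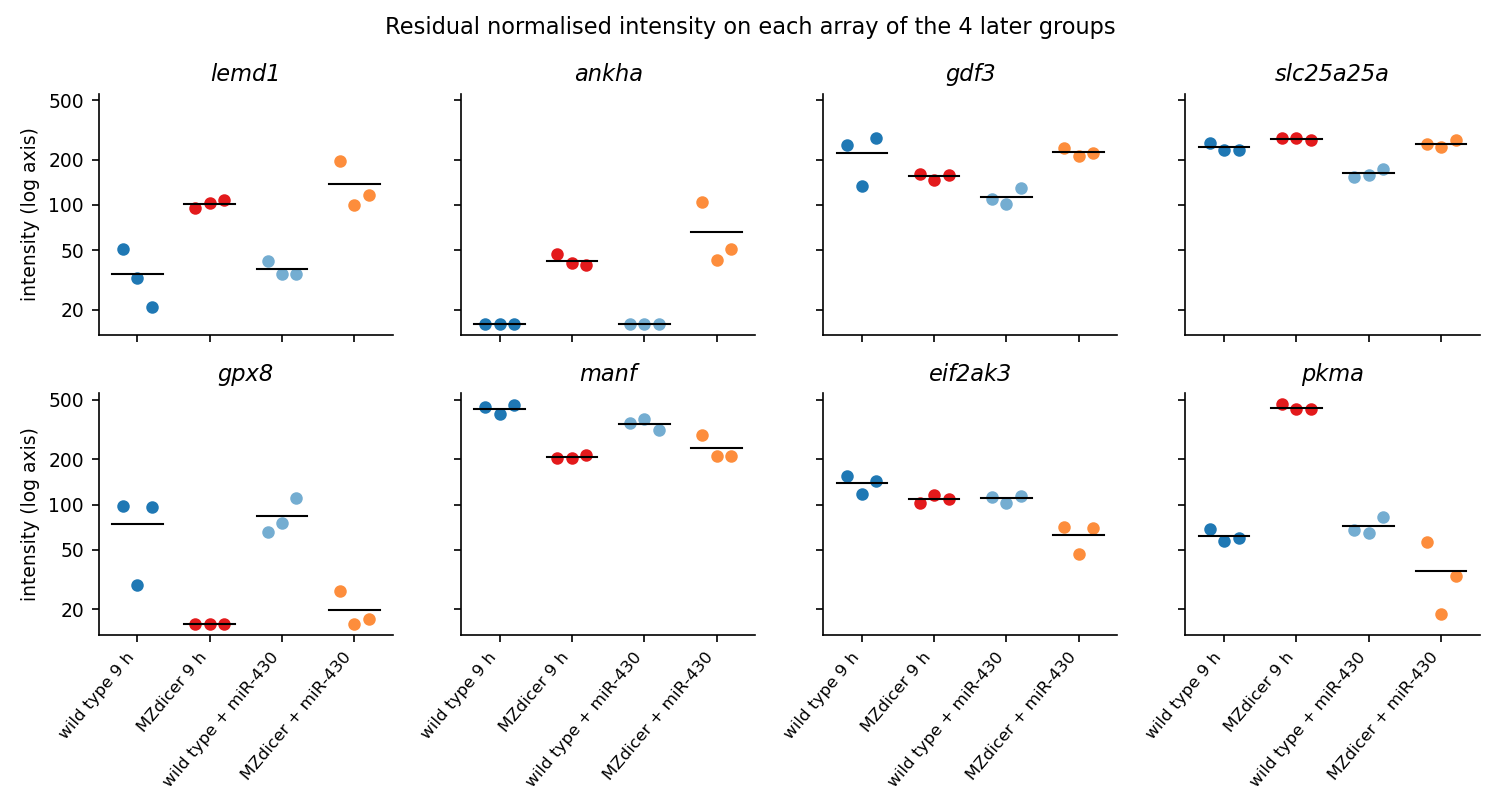
Normalised intensity (log axis) of 8 genes called in the comparison of the injected groups on each array of the 4 later groups, 1 point per array, with group means as bars. The upper row shows genes higher and the lower row genes lower in injected MZdicer, such as gdf3 at 113 against 225 and manf at 346 against 237.

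Other genes called higher were lmo7b, dennd2db, fam117ab, slmapb, bokb and lrrc40, with differences of 0.77, 0.70, 0.57, 0.60, 0.49 and 0.44, and the protease gene tmprss4b had a difference of -0.64. The calls of fam117ab, slmapb, cox17, lrrc40 and bmi1b held in 23, 22, 17, 14 and 8 of 24 alternatives. Those of dennd2db, bokb, tmprss4b, lmo7b and ssx2ipa held in 23, 19, 18, 17 and 15 of 23, and apart from dennd2db all of these were lost with the staining run as a block (for lmo7b the adjusted p reached 0.266 over the alternatives). The genotype difference had the same sign in the uninjected arrays for 34 of the 38 called members (89.5%), against 84.2% of all probe sets called in the injected comparison. The rule limited both uninjected means, so this share is a description. The exceptions were gdf3, pkma, zar1l and zgc:171474. The largest difference of all members was that of probe set 11 of UniGene cluster Dr.25133, which has no symbol and was singled out after its values were seen. It read 5665 and 6215 at 16 cells, 340, 227 and 322 in wild type, 327, 390.3 and 363 in MZdicer, 39.7, 37.9 and 32.6 in injected wild type and 191, 382 and 350.1 in injected MZdicer, so injected wild type alone was low. The difference between the injected groups was 2.56 ± 0.21 (SE, adjusted p = 6.02e-06, limma), and it was called in 24 of 24 alternatives. The clone-type gene zgc:171474 had the same pattern at a lower level, 22.5, 16 and 18 in injected wild type and 34.7, 89.9 and 127 in injected MZdicer. Its probe set belongs by its identifier to the same cluster, as does that of the cyclin gene ccnp, which read 38.9, 41 and 46.7 in injected wild type and 20, 27.4 and 27.7 in injected MZdicer and was not called.

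The comparisons that used the uninjected arrays describe the members only, since the rule limited those means. Between uninjected MZdicer and wild type 81 of 160 were called (50.6%, against 47.4% of all probe sets). In MZdicer 55 were higher (34.4%, against 22.2%) and 26 lower (16.2%, against 25.2%). Injected against uninjected MZdicer gave 45 (28.1%, against 24.6%), 12 higher (7.5%, against 12%) and 33 lower (20.6%, against 12.6%). Injected against uninjected wild type gave 20 (12.5%, against 14.1%), 9 higher (5.62%, against 7.32%) and 11 lower (6.88%, against 6.73%). These comparisons share arrays with each other. Uninjected wild type shared no staining run with uninjected MZdicer or injected wild type. In both comparisons with it, the group and the staining run therefore cannot be told apart. Beside pkma and the probe set of cluster Dr.14267, tent5c was among those higher in uninjected MZdicer (511, 474 and 491 against 218, 146 and 187 in wild type). Lower in uninjected MZdicer were manf (204, 204 and 215) and the helicase gene pif1, at 129 ± 9.94 against 266 ± 23.9.

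Lists of maternal functions held few of the members. The counts below do not include the genes left out by name, whose probe sets had passed all limits. Of 14 measured oocyte nucleus and maternal effect genes 9 reached a 16-cell mean of 1000, and 5 were members, bmp15, kpna7, nanog, slbp2 and zar1l. Translation control had 33 measured genes, 17 above the minimum and 5 members (cpeb1b, lsm14b, pabpc1l, pabpn1l and patl2). The meiotic and maternal cell cycle list had 28, 18 and 3 (fbxo43, mos and wee2), and germ plasm had 14, 8 and 2 (asz1 and tdrd7a). Deadenylation and decay had 27, 8 and 1 (btg4), and the described miR-430 targets 7, 2 and 1 (tdrd7a). No egg coat gene was a member, though 4 of 13 measured reached the minimum. Genes above the minimum that were not members included the cyclins ccnb1 and ccnb2, the kinase gene plk1, the germ plasm genes ddx4 and dnd1, the poly(A)-binding gene pabpc1a and the deadenylase gene cnot6a. Over whole lists, with 11.4% of all probe sets called higher and 9.45% lower, the comparison of the injected groups called 11 of 33 translation control genes higher in MZdicer and 2 lower, 2 of 28 cell cycle genes higher and 8 lower, and 2 of 14 germ plasm genes higher and 2 lower. Of the oocyte nucleus genes 2 of 14 were higher and none lower, of the egg coat genes 4 of 13 were higher and none lower, of the deadenylation genes dcp1a was higher and dicer1 lower, and of the miR-430 targets cxcl12a was higher and nanos3 and ndr1 were lower. No list was tested as a whole.

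Around the limit of 0.125, the members with the largest of their 3 ratios to the 16-cell mean were syvn1 (0.124), tmem192 (0.123), lrrc40 (0.123), the dimmer manf probe set (0.122) and lnx2b (0.121). Just outside lay podxl2 (0.126), tpi1a (0.126), stk17al (0.127), tbp (0.127) and acp5a (0.128). In MZdicer the glycolytic gene tpi1a was at 190.2 after 1504 at 16 cells, against 31.9 in wild type. For tbp, the TATA-binding protein gene, the 50% epiboly value of 570.1 after 4478 at 16 cells set the ratio, and its 9-hour means were 446 in wild type and 489 in MZdicer.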

How the data were processed

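Expression was measured on 15 Affymetrix Zebrafish arrays with 1 linear intensity per probe set, as deposited. Per the labels' protocols, 2 µg of total RNA was primed with oligo(dT) for each array. The authors' probe summary and background correction are not given in the sources used here. Precision is limited by how few arrays each group has. The deposited intensities of 15502 probe sets, without Affymetrix controls, were quantile normalised over all arrays. Levels carry a floor of 16 and are given as mean ± SD. For tests, negative values became 0, and limma 3.58.1 in R 4.3.3 was run on log2(intensity + 16) with a mean-variance trend, 4 groups, 12 arrays and 8 residual degrees of freedom. Adjusted p-values are limma's, by Benjamini-Hochberg over the 15502 probe sets, with calls under 0.05. Simulated data for injected MZdicer against injected wild type held 15502 probe sets. Of differences put in at 1.5-fold, 48 of 67 were called, as were 62 of 67 at 2-fold and 66 of 66 at 4-fold. There were 7 false calls. Values were drawn independently for each probe set and array, without staining runs. The 7 therefore do not give the error rate of the real comparison. Differences were put only into probe sets above the dimmest 40% by mean over the 12 arrays. Recovery was not counted apart by brightness, so for the dim members it was not tested.

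The members and the gene lists were chosen with earlier results of these data known. Named genes were the 15 brightest at 16 cells with a single symbol that is not a clone name, the 5 largest called rises and 5 largest called falls between the injected groups, all members in the lists, and the 5 members just inside and 5 probe sets just outside the limits. Other genes are named for their role or after their values were seen. A gene with several member probe sets is represented by the brightest unless another is named. Gene names come from the platform annotation, and all 125 symbols matched the RefSeq gene table of GRCz12tu. Per the file headers, the arrays fall into 3 scan days, and all 6 injected arrays share 1 scan day. The hybridisation date in the headers splits the arrays into 5 sets, here called staining runs. Alternatives were the intensities as deposited, other scalings, floors, pseudocounts and limits, no dim probe sets, no trend, blocks for replicate number, scan day and staining run, only the arrays compared, and leaving out each array.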

Additional observations from a re-analysis of the deposited data

Results flagged for a closer look

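For 11 of the 160 members every array of a contrast moved one way in 1 group and the other way in the other, without overlap, a difference that was not tested. By the sign of the fitted difference alone, MZdicer minus wild type was opposite in uninjected and injected embryos for 46 members, and injected minus uninjected was opposite in MZdicer and wild type for 78. These patterns were counted in the members only. Without the share over all probe sets, the counts do not show whether the members differ from the rest. For gdf3 injected minus uninjected was 0.49 in MZdicer and -0.82 in wild type on the log2 scale, with injected MZdicer at 240.1, 212 and 223 and uninjected MZdicer at 162, 147 and 159, and injected wild type at 109, 102 and 129 and uninjected wild type at 250, 134 and 278. For pkma MZdicer minus wild type was 2.56 in uninjected and -0.81 in injected embryos, and for zar1l it was -0.36 in uninjected and 0.50 in injected embryos. The means of zar1l were 108 ± 12.6 in wild type, 80.4 ± 5.33 in MZdicer, 52.5 ± 4.6 in injected wild type and 82.9 ± 24.7 in injected MZdicer. MZdicer minus wild type was 0.90 uninjected and -0.33 injected for cd68, 0.41 and -0.64 for tesk1b, -0.34 and 0.33 for akip1, and 0.63 and -0.25 for a probe set without a symbol. Injected minus uninjected was 0.70 in MZdicer and -0.18 in wild type for pif1, 0.17 and -0.20 for the brighter gtf3ab probe set, -0.49 and 0.59 for mknk1, -0.25 and 0.26 for nectin3b, and -0.30 and 0.93 for cd68. The rule for members limited the uninjected means in each of these. No group has more than 3 arrays, so single arrays were not checked as outliers.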

How the results depend on the processing

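The call count of 38 members between the injected groups was 24 with only the 6 arrays compared and 14 with the staining run as a block. The latter alternative was chosen after seeing the data and rested on injected wild-type replicate 3 alone for that group. Other settings that kept all arrays gave between 27 and 39, the lowest over the brighter probe sets alone (dimmest 40% not tested). Over all probe sets the calls were 3237 in the main fit, 2141 with only the 6 arrays and 1229 with the staining run as a block. In those other settings they ran from 2726 (of 9301 tested) to 3455. Leaving out single arrays gave 25 to 40 members between the injected groups and 70 to 85 for uninjected MZdicer against wild type. It gave 36 to 47 for injected against uninjected MZdicer and 13 to 26 for injected against uninjected wild type (13 without uninjected wild-type replicate 3 or injected replicate 2). Over all probe sets the ranges were 2187 to 3740, 6102 to 7850, 2946 to 3945 and 1340 to 2894, in the same order. Over the brighter probe sets 48 of the 86 members tested were called between uninjected MZdicer and wild type, beside 5596 of all 9301. None of the 38 called differences between the injected groups was reversed, and other named differences were not followed in this way. Same-numbered arrays were not paired: deviations from the group means correlated at 0.0116, -0.00645 and -0.00173 between the injected groups. With the replicate number as a block 36 members were called, and 81, 45 and 18 in the other comparisons. Over all probe sets these counts were 2947, 7121, 3606 and 1930.

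The number of members depended on the rule's limits. It was 261 with one median for all arrays in place of quantiles, 256 and 102 with a 16-cell minimum of 500 and 2000, and 350 and 74 with a looser (0.25) and a stricter (0.0625) ratio limit. At most one eighth (or the limit used) in injected MZdicer were 259, 253, 100, 346 and 74 of these, and in injected wild type 259, 252, 100, 348 and 73. Leaving out single arrays gave 158 to 165 members, of which 155 to 162 were at most one eighth in injected MZdicer and 155 to 162 in injected wild type. Low signal limits the comparison, since most members lay below the median intensity of an array after the 16-cell stage.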
